A study of Mus musculus with 45 samples.

Results

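The early response of the fasted mouse liver to insulin was measured on a chow diet, 30 min after the hormone was given. The comparison sets 3 liver libraries taken 30 min after insulin against 3 basal libraries, 6 of the 45 libraries of the series, chosen by diet and time from the sample labels and with no use of the measured values. All came from wild-type C57BL/6J mice on chow, aged 24 weeks and fasted overnight before the liver was collected. Insulin was injected into the peritoneum at 1 U/kg in PBS. Basal mice had neither insulin nor metformin, and no vehicle injection is named for them in the labels, so injection and insulin cannot be told apart. At least 3 mice stand behind each group. Of 23227 genes in the tables, 14067 had enough reads to be tested, and 10 were called.

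Insulin binds its receptor on hepatocytes and signals along a pair of main branches. The branch through phosphatidylinositol 3-kinase and Akt drives FoxO transcription factors out of the nucleus, so that fasting genes are switched off, and it promotes glycogen and lipid synthesis. The branch through Ras and the MAP kinase ERK switches on immediate early genes, whose products include the phosphatases that turn MAP kinases off again. Tissue taken soon after insulin catches early transcripts, and transcripts that decay fast, before most metabolic genes have had time to move.

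Values are CPM, the reads of a gene per 1000000 counted reads, scaled for library composition. Differences are log2 fold changes with an approximate standard error (SE) from the edgeR quasi-likelihood fit of all libraries. A gene was called at a Benjamini-Hochberg adjusted p below 0.05. Depth was 19.0 to 45.7 M counted reads (1 M is 1000000) in the basal libraries, 18.2 to 27.1 M in the 30 min libraries and 18.2 to 50.3 M over the series. The deepest of the 6 was basal replicate 1. The 11 hepatocyte markers measured, Alb among them, summed to 113770 to 119907 CPM in the basal and 110463 to 131116 CPM in the 30 min libraries, so the labelled tissue carries its markers. Traces of other tissue differed between the libraries, and the ranges of the groups overlapped. The 20 pancreatic acinar markers summed to 2389, 1063 and 395 CPM in the basal libraries against 245, 71.6 and 435 CPM at 30 min. The 15 skeletal muscle markers summed to 244, 27.7 and 19.5 CPM against 26.1, 34.8 and 37.8 CPM, and basal replicate 1 alone stood out. Acta1, skeletal muscle actin, was at 58.0 CPM in that library and at or near 0 in the other 5. Of the 132 marker genes tested over the 12 lists, edgeR called 0, and 12 had an unadjusted p below 0.05, 11 of them muscle markers. DESeq2 called 8, all muscle markers with their highest CPM in basal replicate 1. The most abundant member of each other list was Cd5l (macrophage), Stab1 (endothelium), Dcn (stellate cell and matrix), Spp1 (cholangiocyte), Cd74 (lymphocyte), Csf3r (neutrophil), Alas2 (erythroid), Cidec (adipocyte) and Gpm6a (mesothelium). Their log2 differences from basal were 0.10, 0.12, -0.01, -0.03, 0.11, 0.14, 0.06, -0.94 and -0.12 in that order. Cidec does not stand for its list: of the 9 adipocyte markers tested, 6 were positive and 3 negative, with a median of 0.16. The part of these traces in the results below was not tested. In whole liver, fewer cells of a type and less RNA per cell cannot be told apart.

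At 30 min, 10 of 14067 tested genes (0.0711%) were called. Of these 9 rose (0.064% of genes tested) and 1 fell (0.00711%). The genes that rose were Nr4a1, Dusp1, Gm6484 (the name in the tables of the gene that RefSeq calls Angptl8), Dusp6, Trib1, Tob1, Phf23, Brd2 and Pcf11. The gene that fell was Txnip. In all 10 the libraries of the groups did not overlap, which held for 1145 genes higher at 30 min (8.14% of those tested) and 1309 lower (9.31%). The median log2 fold change over all tested genes was -0.00. In all, 1049 genes (7.46%) had an unadjusted p below 0.05.

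**Figure D1:**
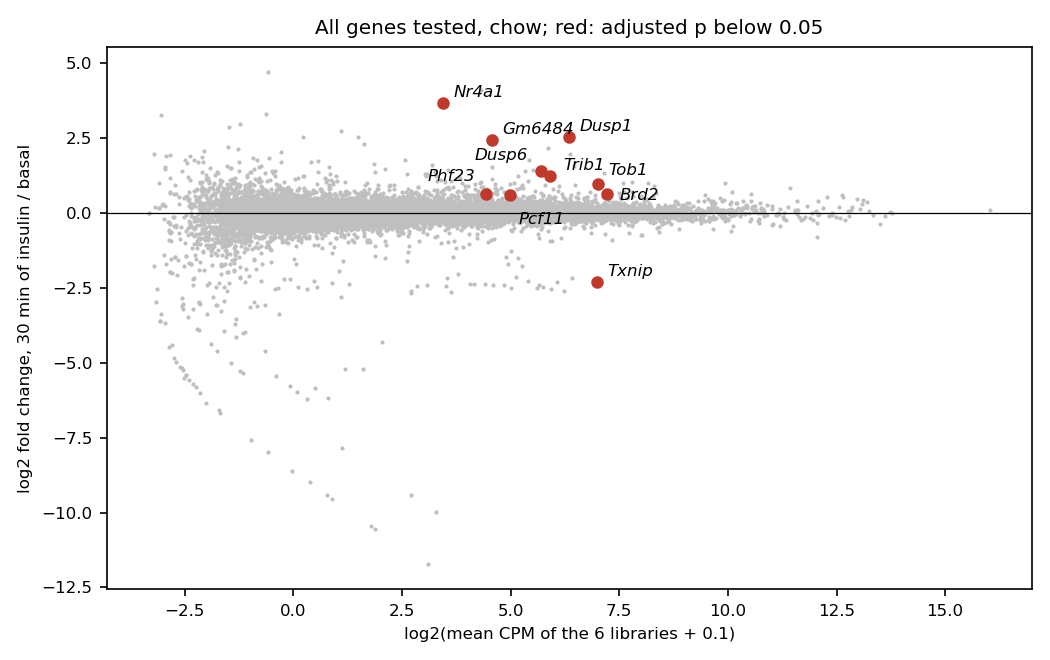
Log2 fold change at 30 min of insulin over basal on chow (vertical axis) against the log2 of the mean CPM of the 6 libraries plus a small offset (horizontal axis), 1 point for each of 14067 genes. The 10 called genes are red. Marker genes have no colour of their own. All 20 pancreatic markers (median -2.38) and 14 of the 15 muscle markers (median -5.77) lie below 0. EdgeR called 0 of them, and DESeq2 called 8 muscle markers.

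Nr4a1 and Trib1 were called from the list of Egr, Nr4a, Ier and other early genes. Nr4a1 is an orphan nuclear receptor (chromosome 15, 101097277 to 101105225 of mm9, the build of all gene positions here). Its level was 1.49, 2.24 and 1.01 CPM in the basal libraries and 4.19, 13.4 and 42.8 CPM at 30 min. All 3 insulin libraries were above all basal ones, with a wide range among themselves. The log2 fold change was 3.67 ± 0.68 (SE, n = 3 and 3), a 12.7-fold rise (edgeR adjusted p = 0.0100). Trib1, a pseudokinase that brings its targets to a ubiquitin ligase and that is known from plasma lipid traits (chromosome 15, 59480209 to 59488654), was at 38.5, 37.1 and 32.9 CPM in basal liver. After insulin it stood at 78.8, 86.2 and 88.1 CPM. The groups were tight and far apart, and the rise was 2.33-fold (log2 1.22 ± 0.21, edgeR adjusted p = 0.00551).

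The phosphatases that switch MAP kinases off formed the next group. Dusp1, a nuclear phosphatase of p38, JNK and ERK (chromosome 17, 26642536 to 26645417), was at 19.9, 20.3 and 31.9 CPM in the basal and 90.9, 176 and 146 CPM in the insulin libraries. The lowest insulin library was well above the highest basal one. The rise was 5.74-fold (log2 2.52 ± 0.52, edgeR adjusted p = 0.0349). Dusp6, a cytoplasmic phosphatase that acts on ERK (chromosome 10, 98725865 to 98730123), was at 25.0, 37.5 and 22.2 CPM in the basal group. It was at 67.3, 75.1 and 83.2 CPM after insulin. These groups were also apart, with a 2.66-fold rise (log2 1.41 ± 0.26, edgeR adjusted p = 0.0100). Of the 17 tested MAP kinase phosphatase and Sprouty genes, these 2 were called, and the median log2 fold change of the 17 was 0.14.

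The secreted protein among the called genes was Gm6484, that is Angptl8, a feeding-induced protein of liver and fat that restrains lipoprotein lipase. Basal libraries held 5.95, 8.17 and 8.28 CPM and insulin libraries 33.2, 35.3 and 50.7 CPM. The groups were far apart in every library. The 5.37-fold rise (log2 2.43 ± 0.39) had an edgeR adjusted p of 0.00322. The gene lies within the span of Dock6 on the other strand, with no exon bases in common in the gene models (chromosome 9, 21639954 to 21641791). Angptl4, the fasting-induced relative, was at 303, 362 and 298 CPM in basal and 245, 179 and 159 CPM in insulin libraries, and missed the threshold (log2 -0.72 ± 0.16, edgeR adjusted p = 0.0596). Angptl4 was called in 3 of the 8 alternatives that kept all libraries, DESeq2 among them.

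Txnip, an arrestin-domain protein that binds thioredoxin and lowers glucose uptake (chromosome 3, 96361880 to 96365780), had the smallest adjusted p. It was at 141, 247 and 247 CPM in the basal libraries. At 30 min it was at 39.8, 41.6 and 47.4 CPM. The insulin libraries were close to each other and far below every basal one. The fall was 4.93-fold, or -2.30 ± 0.26 on the log2 scale (edgeR adjusted p = 2.81e-06). Txnip shares exon bases with Gm15441, an antisense gene. The library kit does not mark strand, so reads of the shared part cannot be told apart. Gm15441 itself was at 50.5, 61.6 and 45.9 CPM in basal and 17.9, 10.3 and 28.2 CPM in insulin libraries. Its groups did not overlap either, and it was not called (log2 -1.49 ± 0.53, edgeR adjusted p = 0.411). Of the 8 tested Txnip and arrestin-domain genes, Txnip alone was called by edgeR. Arrdc3 was at 111, 125 and 102 CPM in basal and 163, 158 and 173 CPM in insulin libraries (log2 0.55 ± 0.51, edgeR adjusted p = 0.874), and the fit of the 6 libraries alone called it. Arrdc4 had a log2 fold change of -0.03.

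The 4 remaining genes act on transcription and mRNA. Tob1, an antiproliferative protein that recruits an mRNA deadenylase (chromosome 11, 94072768 to 94076806), was at 90.8, 81.8 and 85.7 CPM and then at 129, 184 and 197 CPM (log2 0.98 ± 0.20, edgeR adjusted p = 0.0287). Brd2, a bromodomain reader of acetylated histones (chromosome 17, 34248964 to 34259552), was nearly constant in basal liver, at 116, 116 and 117 CPM. With insulin it was at 152, 158 and 233 CPM, and replicate 3 was far above the other insulin libraries (log2 0.64 ± 0.13, edgeR adjusted p = 0.0287). Pcf11, a cleavage and termination factor of RNA polymerase II transcripts (chromosome 7, 99792222 to 99818422), went from 23.9, 27.2 and 24.0 CPM to 37.9, 34.0 and 41.6 CPM (log2 0.60 ± 0.12, edgeR adjusted p = 0.0208). Phf23, a PHD finger protein (chromosome 11, 69809273 to 69813513), was at 16.1, 17.1 and 17.5 CPM in basal and 25.6, 26.9 and 26.2 CPM in insulin libraries. It had the narrowest insulin group of the 9, with a rise of 0.64 ± 0.12 on the log2 scale (edgeR adjusted p = 0.0100).

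**Figure D2:**
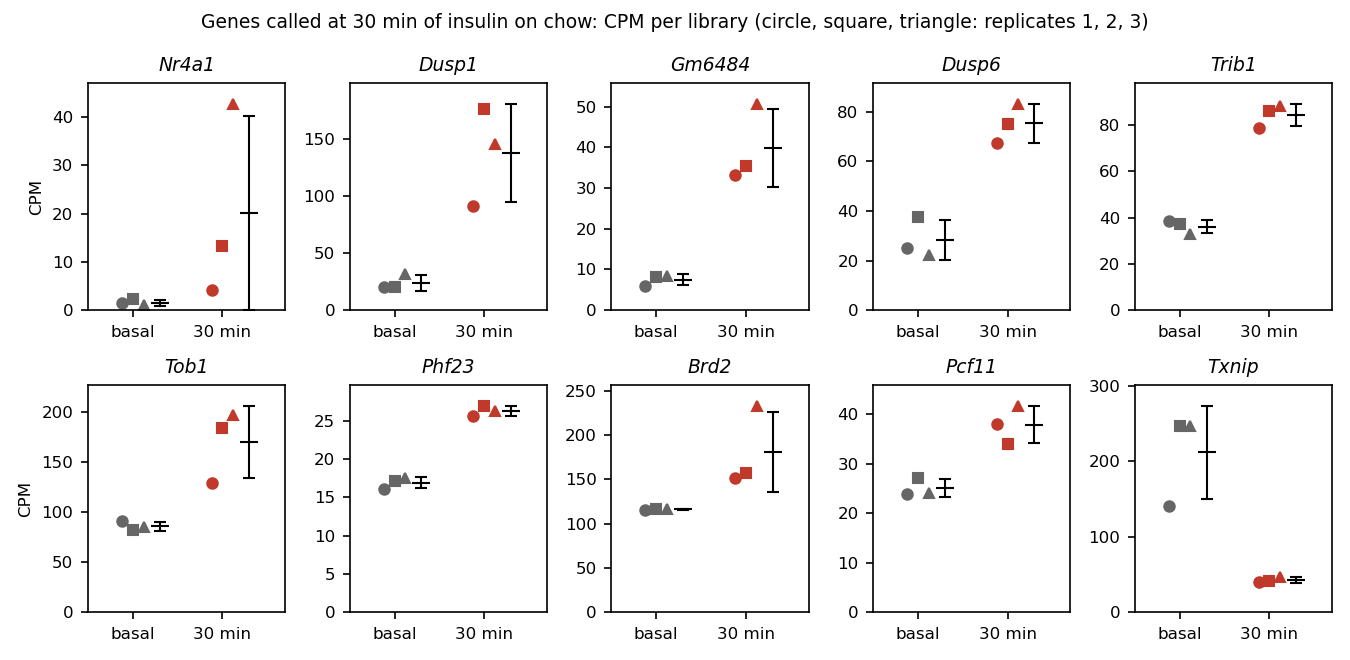
CPM (vertical axes, from 0) of the 10 called genes in the 3 basal (grey) and 3 insulin (red) libraries, with symbols for the replicate and black bars for mean ± SD, cut off at 0 for Nr4a1. In each panel the groups are apart, and Nr4a1 and Brd2 have their highest value in insulin replicate 3.

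Among the 9 genes that rose, insulin replicate 3 had the highest CPM in 7 and insulin replicate 1 the lowest in 8. Over all tested genes, replicate 3 was the highest in 35.3% and replicate 1 the lowest in 31.1%. The calls depended on single libraries. Without basal replicate 1, 2 or 3 the count was 1, 8 or 2, and without insulin replicate 1, 2 or 3 it was 14, 7 or 4. Txnip was called each time. Gm6484 was lost only without basal replicate 1 (edgeR adjusted p = 0.0744), and Trib1 without basal replicate 1 or 3. Nr4a1 and Dusp6 were lost without basal replicate 1 or 3 or insulin replicate 3. Dusp1 and Tob1 were lost without any 1 of the basal libraries and without insulin replicate 2 or 3. Phf23 was lost without basal replicate 1 or 3 or insulin replicate 2 or 3, Pcf11 without basal replicate 1 or 3 or insulin replicate 1 or 3, and Brd2 without any 1 of the basal libraries or insulin replicate 3. No direction changed: with 1 library left out, the log2 fold change ran from 2.48 to 4.15 for Nr4a1, from 2.30 to 2.77 for Dusp1, from 2.21 to 2.54 for Gm6484 and from -2.53 to -2.18 for Txnip. DESeq2 on the same genes called 63, of which 39 were higher and 24 lower. In 13 of the 24 lower genes basal replicate 1 was over 4 times every other library of the 6. They were the 8 muscle markers, the muscle genes Myh8, Xirp2, Myot and Ckmt2, and Try10, a trypsinogen of the pancreas. The fit of the 6 libraries alone called 61, with 0 marker genes among them, and every alternative that kept all 6 libraries called Txnip, Gm6484, Dusp6 and Trib1. Nr4a1 was called in 4 of these 8 alternatives. It was lost in the fit of the 6 libraries alone, with limma on the deposited values, and with replicate number in the model. Brd2 was lost in that fit and with limma. Limma also lost Phf23 and Pcf11, and replicate number in the model lost Dusp1 and Tob1.

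Promoter sequence is shown for Nr4a1, the phosphatase Dusp1 and Txnip, the gene that fell, since each has letters of an element known from insulin, growth factor or glucose control of transcription. Each window holds the 250 bases before the transcript start, 5′ to 3′ on the gene's strand, from RefSeq on GRCm38.p6, a different build from the mm9 gene models. Capitals mark exact matches, on either strand, to TGACGTCA (the cAMP response element), TGCGTCA (a CRE-like element), GTAAACA (a forkhead element), CACGTG (an E-box) and CACGAG (the half-element of a carbohydrate response element). No listed motif lies within another, and none of the matches below overlap.
Nr4a1, chr15:101266596-101266845, plus strand: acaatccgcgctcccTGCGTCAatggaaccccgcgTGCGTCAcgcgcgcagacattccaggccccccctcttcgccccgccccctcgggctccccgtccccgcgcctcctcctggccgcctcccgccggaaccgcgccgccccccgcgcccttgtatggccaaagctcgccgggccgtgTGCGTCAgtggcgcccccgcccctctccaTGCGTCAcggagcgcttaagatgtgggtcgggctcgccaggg
Dusp1, chr17:26508473-26508722, minus strand: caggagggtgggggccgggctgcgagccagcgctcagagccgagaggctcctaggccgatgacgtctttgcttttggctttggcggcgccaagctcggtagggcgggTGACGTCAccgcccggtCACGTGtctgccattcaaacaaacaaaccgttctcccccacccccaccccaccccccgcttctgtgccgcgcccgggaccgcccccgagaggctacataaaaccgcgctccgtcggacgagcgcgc
Txnip, chr3:96557707-96557956, plus strand: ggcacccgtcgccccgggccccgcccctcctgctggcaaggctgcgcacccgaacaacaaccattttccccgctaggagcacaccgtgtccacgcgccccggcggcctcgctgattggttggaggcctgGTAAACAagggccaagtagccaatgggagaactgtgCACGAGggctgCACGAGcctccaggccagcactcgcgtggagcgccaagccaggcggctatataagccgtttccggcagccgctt

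The Nr4a1 window held TGCGTCA 4 times, and 1.75% of all 32851 windows of this length held it at least once. Dusp1 held TGACGTCA, present in 1.55% of windows, 143 to 136 bases before the start, and CACGTG, present in 6.02%. Txnip held GTAAACA, present in 3.17% of windows, and a pair of CACGAG, present in 5.37%. Windows were at hand for 9 of the 10 genes, 13 in all. Apart from these 3 genes, Brd2 alone had a match, 1 to GTAAACA and 1 to CACGAG in different windows. The CArG box of serum response factor was in none of the 9 genes' windows and in 1.47% of all windows. A match describes letters and is not a measured binding site.

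The other early genes were higher in many libraries without being called. Of 14 tested AP-1 and bZIP genes edgeR called 0, with 7 at an unadjusted p below 0.05, and 7 had insulin libraries all above basal and 1 all below. Over all tested genes these shares were 8.14% above and 9.31% below. The median log2 fold change of the list was 0.43. DESeq2 called 2 of the 14, Fos among them, and the fit of the 6 libraries alone called 3, among them Jun. Limma on the deposited values called 1. Fos, a partner of Jun in AP-1, was at 0.473, 1.39 and 1.33 CPM in basal and 2.78, 5.93 and 6.12 CPM in insulin libraries (log2 2.31 ± 0.60, edgeR adjusted p = 0.144). Jun was at 10.6, 14.4 and 11.7 CPM and then 23.6, 33.2 and 48.7 CPM (log2 1.53 ± 0.42, edgeR adjusted p = 0.178). For both, every insulin library was above every basal one. Egr1, a zinc finger early gene, was at 25.4, 12.5 and 18.4 CPM in basal and 27.1, 26.5 and 37.4 CPM in insulin libraries, which are apart by little (log2 0.68 ± 0.71, edgeR adjusted p = 0.902). Of the 27 tested Egr, Nr4a, Ier and other early genes, 2 were called (Nr4a1 and Trib1), 9 had insulin libraries above and 3 below all basal ones, and the median was 0.40. Of 14 Kruppel-like factors edgeR called 0, with 7 at an unadjusted p below 0.05, 6 above, 1 below and a median of 0.30. DESeq2 called Klf4 as higher and Klf10 as lower (log2 1.46 and -1.13 with edgeR over all libraries). The fit of the 6 libraries alone called Klf3 and Klf16 (log2 0.84 and 0.99 with edgeR over all libraries).

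The FoxO-type fasting targets held genes on both sides. Of 18 tested, Txnip fell and Trib1 rose, 8 had insulin libraries below and 3 above all basal ones (9.31% and 8.14% of all tested genes), and the median log2 fold change was -0.20. Irs2, the insulin receptor substrate that rises on fasting, was at 18.7, 19.7 and 17.0 CPM in basal and 6.72, 6.67 and 6.54 CPM in insulin libraries. Both groups were tight and they were apart, yet Irs2 was not called (log2 -1.47 ± 0.47, edgeR adjusted p = 0.310), and its exons overlap those of 9530052E02Rik on the other strand. The spread in this test is estimated over all groups of the series. With the spread taken from these 6 libraries alone Irs2 was called (edgeR adjusted p = 0.000847), and over its other alternatives the adjusted p ran from 0.176 to 0.768. With 60 min of insulin, Irs2 ran from 5.32 to 25.1 CPM, and with 120 min from 13.6 to 45.8 CPM. Igfbp1, a secreted binding protein of IGFs that insulin suppresses, was at 191, 162 and 279 CPM in basal and 110, 105 and 123 CPM in insulin libraries. They did not overlap (log2 -0.91 ± 0.51, edgeR adjusted p = 0.734). Pdk4, the kinase that blocks pyruvate oxidation, was at 32.5, 61.2 and 45.6 CPM and then at 12.4, 8.81 and 21.5 CPM (log2 -1.71 ± 0.70, edgeR adjusted p = 0.544).

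Of the 17 gluconeogenesis genes tested edgeR called 0, with 2 at an unadjusted p below 0.05 and a median log2 fold change of 0.14. G6pc, glucose-6-phosphatase, was at 415, 439 and 458 CPM in basal and 336, 334 and 404 CPM in insulin libraries (log2 -0.29 ± 0.36, edgeR adjusted p = 0.936). Pck1, the rate-limiting enzyme of gluconeogenesis, had a log2 fold change of 0.41 ± 0.22 (edgeR adjusted p = 0.713), and the groups overlapped. Ppargc1a, a coactivator of fasting genes, was at 15.6, 17.1 and 17.2 CPM in basal and 32.2, 36.7 and 29.5 CPM in insulin libraries (log2 0.98 ± 0.23, edgeR adjusted p = 0.0678). Its insulin libraries were above all basal ones. Ppargc1a missed the threshold with edgeR over all libraries, and was called by DESeq2 and by the fit of the 6 libraries alone.

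On the side of glucose use, Ppp1r3b, which brings protein phosphatase 1 to glycogen, was at 200, 209 and 164 CPM in basal and 365, 445 and 340 CPM in insulin libraries. All insulin libraries were above the basal ones, and the gene missed the threshold (log2 1.00 ± 0.22, edgeR adjusted p = 0.0596), though DESeq2 and the fit of the 6 libraries alone called it. Srebf1, the master gene of lipogenesis, was at 35.6, 22.8 and 19.1 CPM in basal and 30.1, 31.5 and 30.2 CPM in insulin libraries, and the groups overlapped (log2 0.24 ± 0.29, edgeR adjusted p = 0.932). Of 25 lipid synthesis genes (fatty acids and triglycerides), Gm6484 alone was called, and the median was 0.16.

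The genes of fatty acid oxidation and ketogenesis gave the list with the most members on the lower side. Of 26 tested edgeR and DESeq2 called 0 and the fit of the 6 libraries alone 1 (Ehhadh), with 7 at an unadjusted p below 0.05. Of these 26, 14 had insulin libraries all below basal (9.31% of all tested genes did) and 1 (Cpt1a) all above, and the median log2 fold change was -0.21. Plin2, a lipid droplet coat protein induced by PPARα, was at 1207, 1472 and 1201 CPM in basal and 774, 646 and 1112 CPM in insulin libraries (log2 -0.62 ± 0.19, edgeR adjusted p = 0.284). The mitochondrial trifunctional protein subunits Hadha and Hadhb had log2 fold changes of -0.22 and -0.20. These shifts are small. The 27 interferon-stimulated genes lay on the other side, with 8 above (8.14% of all tested genes were) and 1 below all basal libraries, and a median of 0.39. EdgeR and DESeq2 called 0 of them and the fit of the 6 libraries alone 1 (Iigp1), with 7 at an unadjusted p below 0.05. Usp18, which restrains interferon signalling, had the largest value of them, 0.87 (edgeR adjusted p = 0.44).

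Of the 33 tested genes of the insulin receptor pathway edgeR and DESeq2 called 0, with 2 at an unadjusted p below 0.05, and the fit of the 6 libraries alone called Irs2. The median log2 fold change was 0.03. In this pathway 4 genes had insulin libraries above and 3 below all basal ones, against 8.14% and 9.31% of all tested genes. Insr was at 190, 202 and 202 CPM in basal and 203, 244 and 208 CPM in insulin libraries (log2 0.15 ± 0.12, edgeR adjusted p = 0.852). Foxo1 overlapped between groups (log2 0.29 ± 0.17, edgeR adjusted p = 0.734). Per1, a clock gene, was at 46.5, 38.2 and 44.1 CPM and then at 70.6, 65.7 and 56.4 CPM (log2 0.58 ± 0.23, edgeR adjusted p = 0.498). Socs2, a feedback inhibitor of cytokine and growth hormone signalling, was at 8.40, 13.0 and 12.1 CPM in basal and 32.6, 5.97 and 16.1 CPM in insulin libraries, which scattered on both sides (log2 0.72 ± 0.72, edgeR adjusted p = 0.897). Rgs4, the G-protein regulator named in the title of the series, was at 2.14, 1.602 and 1.86 CPM in basal and 1.29, 1.36 and 3.08 CPM in insulin libraries. The Rgs4 groups overlapped (log2 -0.00 ± 0.41, edgeR adjusted p = 1.00). EdgeR called 0 in these lists too, with 0 to 3 genes each at an unadjusted p below 0.05: 22 genes of cholesterol synthesis and uptake (median log2 fold change 0.22), 19 clock genes (0.20), 24 acute phase proteins (0.20), 25 ribosome biogenesis genes (-0.07), 18 genes of the integrated stress response (-0.07), 16 heat shock proteins (-0.13) and 20 genes of the unfolded protein response (-0.15). DESeq2 and the fit of the 6 libraries alone called 1 gene in them, Bhlhe40 of the clock list. Of the 33 lists looked at, 26 had no member called by edgeR, and 6 of the 10 called genes were in a list. The highest median, 0.44, was that of 16 tested glucocorticoid-responsive genes. EdgeR called 1 of them as higher, and 6 had an unadjusted p below 0.05. In this list 5 genes had insulin libraries above and 1 below all basal ones, against 8.14% and 9.31% of all tested genes.

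**Figure D3:**
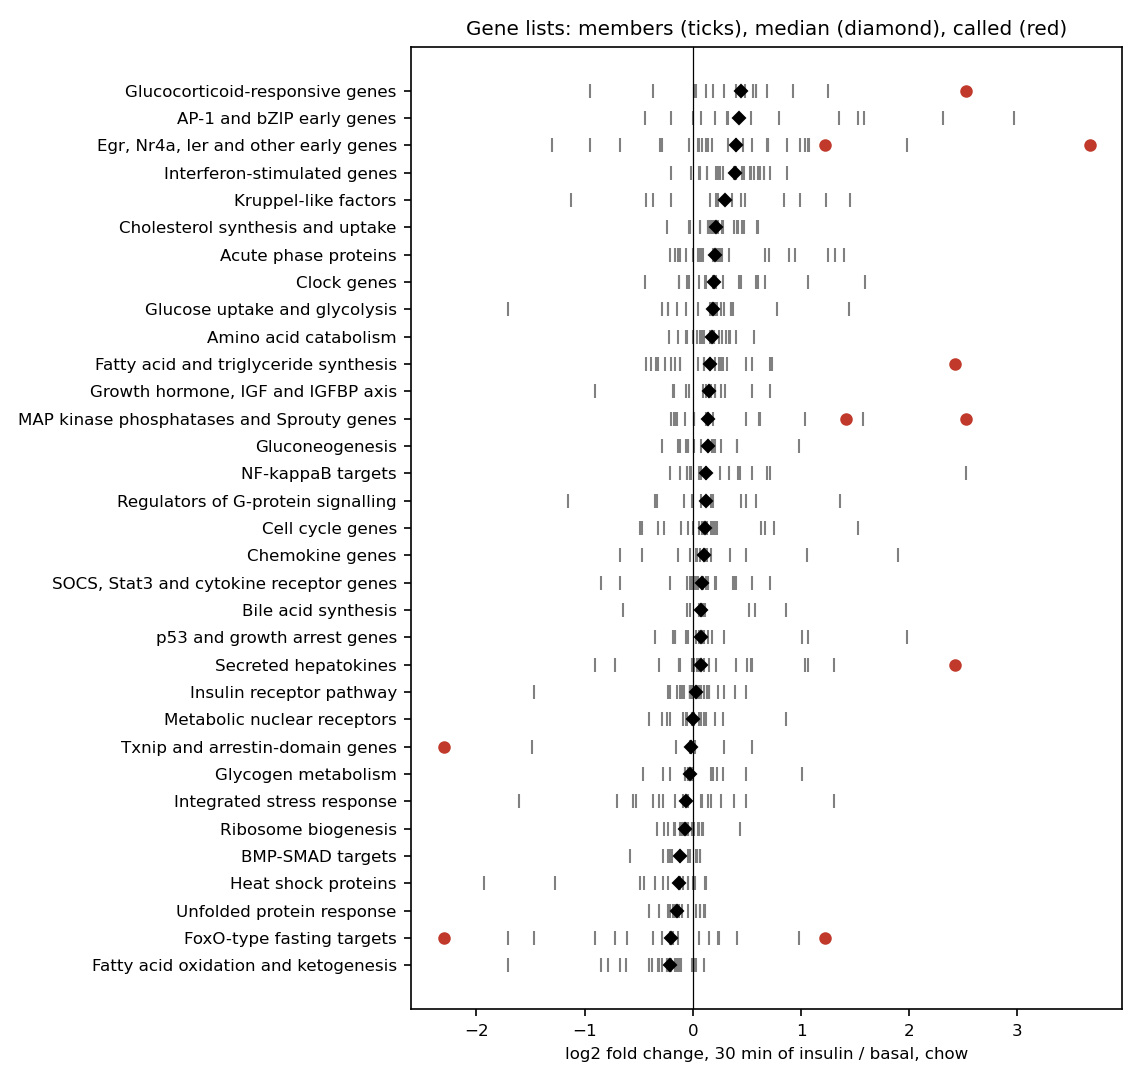
Log2 fold change at 30 min of insulin over basal on chow (horizontal axis) for the members of 33 gene lists (rows, ordered by median); ticks are members, diamonds list medians and red circles called genes. Medians run from -0.21 for fatty acid oxidation to 0.44 for glucocorticoid-responsive genes, and red circles stand in 7 lists.

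A further 16 genes lay just past the threshold, with edgeR adjusted p from 0.0558 to 0.0598, 11 higher and 5 lower. The higher ones included Plk3, a stress and growth factor response kinase, at 29.9, 28.8 and 41.0 CPM in basal and 128, 122 and 143 CPM in insulin libraries. Kdm6b, a histone demethylase, Erf, an ETS repressor that ERK controls, Bhlhe40 and Ccrn4l (Noct, a clock-linked phosphatase) were among them too. The lower ones were Angptl4, Mkrn3, Glyctk, 2310015A10Rik and 8430408G22Rik (Depp1, a FoxO target), the last at 67.3, 48.5 and 62.4 CPM in basal and 23.8, 14.4 and 14.5 CPM in insulin libraries. Mkrn3 rests on few reads, with 27, 6 and 13 in the basal and 3, 4 and 1 in the insulin libraries. Glyctk, Apol9b and Ccrn4l share over 20% of their 40-base words with other genes, so their counts are uncertain.

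The called genes were next placed in time, with livers taken 15, 60 and 120 min after insulin. These groups are set against the same 3 basal libraries, so the comparisons are not independent and only levels are given side by side. Nr4a1 was at 3.95, 5.88 and 9.66 CPM at 15 min, at 37.8, 8.13 and 26.8 CPM at 60 min and at 12, 18.1 and 9.88 CPM at 120 min. Dusp1 was at 40.7, 54.7 and 128 CPM at 15 min, 174, 98.1 and 138 CPM at 60 min and 41.4, 43.4 and 95.5 CPM at 120 min. The means of both were highest at 30 or 60 min, with wide spread between libraries.

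Gm6484 was already at 27.3, 23.4 and 23.8 CPM at 15 min, stood at 28.8, 31.4 and 36.2 CPM at 60 min, and was at 6.55, 7.002 and 13.9 CPM at 120 min. Its 120 min libraries overlapped the basal ones. Tob1 was also early, at 166, 188 and 177 CPM at 15 min, and was still at 128, 147 and 152 CPM at 120 min, above every basal library. Phf23 was at 19.5, 19.1 and 19.6 CPM at 15 min and 27.6, 21.8 and 26.5 CPM at 60 min, so its 15 min libraries lay between the basal and the 30 min ones. Txnip had another course: it was at 195, 319 and 346 CPM at 15 min, within or above the basal range, at 58.5, 54.0 and 49.9 CPM at 60 min, and at 250, 148 and 93.3 CPM at 120 min. Its low level was thus found at 30 and 60 min in all 6 libraries and at no other time in all 3.

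**Figure D4:**
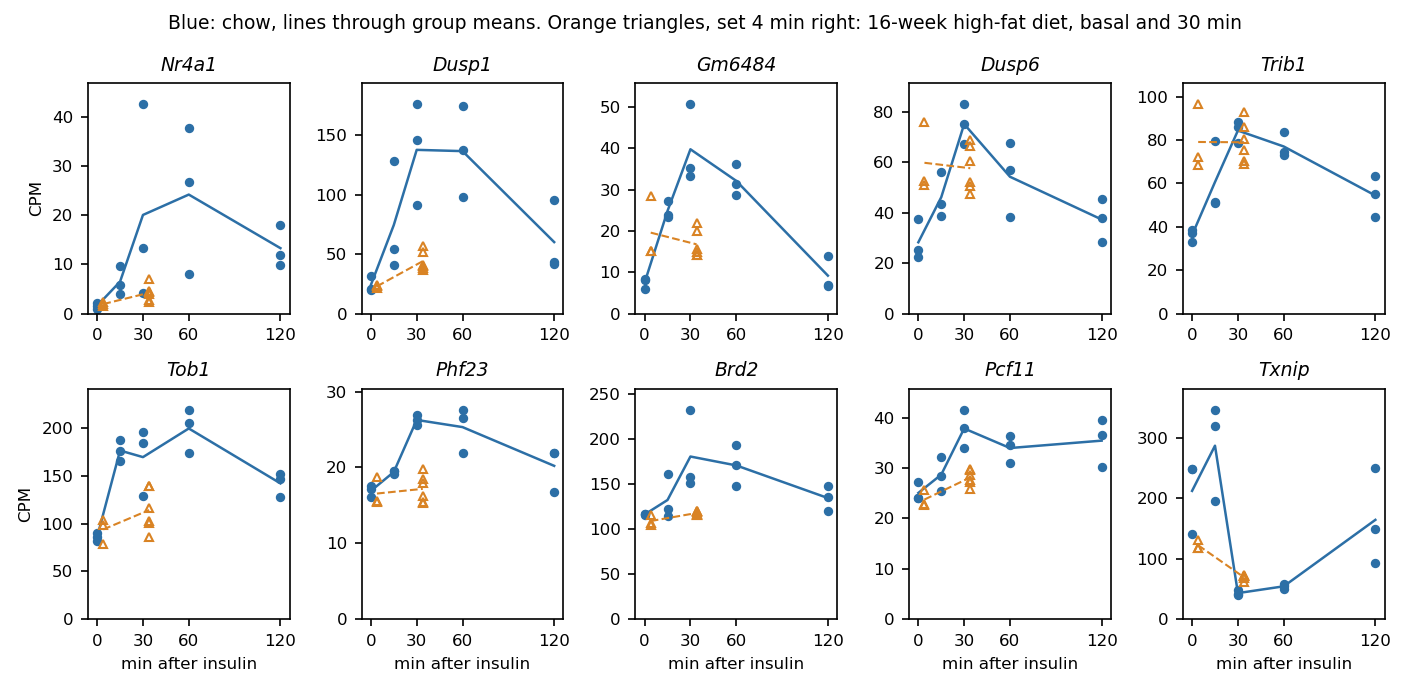
CPM (vertical axes, from 0) of the 10 called genes against minutes after insulin on chow (blue points, lines through group means) with the basal and 30 min libraries of 16-week high-fat diet mice (orange triangles, shifted right). Gm6484 and Tob1 are above basal at 15 min, Txnip is below it at 30 and 60 min, and on high-fat diet the 30 min libraries overlap the basal ones for Gm6484.

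The direct test of 30 against 60 min called 0 genes with edgeR (smallest adjusted p = 0.106), with 1075 genes (7.64%) at an unadjusted p below 0.05 and 28 called by DESeq2, 7 of them marker list members. None of the 10 genes had an adjusted p under 0.683 in it. Arrdc3 was at 163, 158 and 173 CPM at 30 min and 17.2, 39.9 and 36.7 CPM at 60 min. These libraries were far apart, and the difference was not called (log2 2.39, edgeR adjusted p = 0.177).

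The direct test of 30 against 15 min uses no basal library for its fold change. Its spread is estimated over all groups of the series, and it shares the 30 min libraries with the comparison against basal. It called 70 of 14067 genes (0.498%), 45 higher (0.32%) and 25 lower (0.178%) at 30 min, and of the 10 genes above it called Txnip alone (log2 -2.74 ± 0.27, edgeR adjusted p = 4.98e-08). List members among the lower genes included transcription factors of the early response. Klf10, a TGF-β-inducible Kruppel-like repressor, was at 47.6, 82.1 and 75.3 CPM at 15 min and 8.69, 10.3 and 8.72 CPM at 30 min. Basal libraries held 12.4, 27.7 and 21.1 CPM, so Klf10 was above basal in every library at 15 min and below it in every library at 30 min. The difference between the times was -2.89 ± 0.30 on the log2 scale (edgeR adjusted p = 2.26e-07). Its relative Klf11 was at 27.2, 29.0 and 34.9 CPM at 15 min and 10.3, 9.88 and 13.8 CPM at 30 min (log2 -1.43 ± 0.25, edgeR adjusted p = 0.00273).

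Zfp36l2, which binds AU-rich elements and speeds mRNA decay, was at 70.7, 118 and 161 CPM at 15 min and 34.3, 45.5 and 41.6 CPM at 30 min (log2 -1.53 ± 0.24, edgeR adjusted p = 0.000466). Maff, a small Maf protein, was at 8.81, 5.73 and 11.2 CPM and then at 2.29, 2.31 and 2.18 CPM, against 2.16, 1.98 and 2.28 CPM in basal liver (log2 -1.92 ± 0.45, edgeR adjusted p = 0.0371). Maff was thus near basal at 30 min, and it was higher again later, at 2.88 to 6.69 CPM at 60 min and 8.57 to 12.5 CPM at 120 min. Rgs16, a G-protein regulator, was at 37.0, 49.2 and 70.6 CPM at 15 min and 14.4, 7.33 and 2.93 CPM at 30 min (log2 -2.66 ± 0.60, edgeR adjusted p = 0.0324). At 120 min Klf10 was at 22.9 to 33.8 CPM, Klf11 at 18.02 to 32.7, Zfp36l2 at 58.0 to 86.8 and Rgs16 at 3.28 to 21.9. Pim1, Bhlhe40 and Mid1ip1 were also called lower at 30 than at 15 min; of these, Pim1 overlapped in 1 library of each time, and Mid1ip1 shares 21.8% of its 40-base words with other genes.

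Aacs, the cytosolic acetoacetyl-CoA synthetase, was also higher at 15 than at 30 min. It was at 6.04, 6.41 and 5.68 CPM in basal liver, 22.7, 23.2 and 21.5 CPM at 15 min and 6.28, 7.70 and 7.23 CPM at 30 min, and its 30 against 15 min difference was -1.67 ± 0.30 on the log2 scale (edgeR adjusted p = 0.00358). Later it was at 7.48 to 11.6 CPM (60 min) and 9.59 to 14.4 CPM (120 min), between the basal and the 15 min libraries. Slc19a1, the folate carrier, was at 16.3, 13.1 and 13.7 CPM at 15 min and 8.94, 6.26 and 7.13 CPM at 30 min (log2 -0.94 ± 0.14, edgeR adjusted p = 0.000178). It was at 7.73 to 9.18 CPM in basal liver and above that range again at 60 min (11.6 to 12.8 CPM) and 120 min (10.03 to 13.1 CPM). Aacs and Slc19a1, like Hhex, Ints6, Asap2 and Itga5 below, were picked after their values were seen.

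Other genes were lower at 15 than at 30 min. Hhex, a homeobox factor of liver development, was at 93.5, 115 and 77.6 CPM in basal, 49.7, 18.1 and 29.2 CPM at 15 min and 98.5, 110 and 144 CPM at 30 min. The 15 min libraries stood below both other groups (log2 1.86 ± 0.36 from 15 to 30 min, edgeR adjusted p = 0.00853). Hhex was at 54.9 to 89.1 CPM at 60 min and at 22.7 to 28.4 CPM at 120 min, the latter within the range of the 15 min libraries. Ints6, an Integrator subunit, rose by 1.11 ± 0.15 (edgeR adjusted p = 6.07e-05), Asap2 by 1.36 ± 0.20 and Itga5 by 0.81 ± 0.14. Exons of Ints6 and Asap2 overlap those of a gene on the other strand. Itga5, an integrin subunit, was at 27.5 to 28.4 CPM in basal, 19.5 to 22.5 CPM at 15 min and 35.8 to 38.0 CPM at 30 min, so its libraries lay on opposite sides of basal at the 2 times. The ribosome biogenesis genes Nop58 and Rrp12 were 2 of 25 tested in that list. Nop58, a core box C/D snoRNP protein, was at 28.7, 36.3 and 29.5 CPM in basal, 19.7, 19.4 and 21.02 CPM at 15 min and 29.8, 24.1 and 30.4 CPM at 30 min (log2 0.49 ± 0.11, edgeR adjusted p = 0.0366). Agpat2, Ppp1r3b, Klf4 and Npas2 were among the other list members called higher. Ppp1r3b and Klf4 differed from basal by 0.06 and -0.09 on the log2 scale at 15 min and by 1.00 and 1.46 at 30 min.

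**Figure D5:**
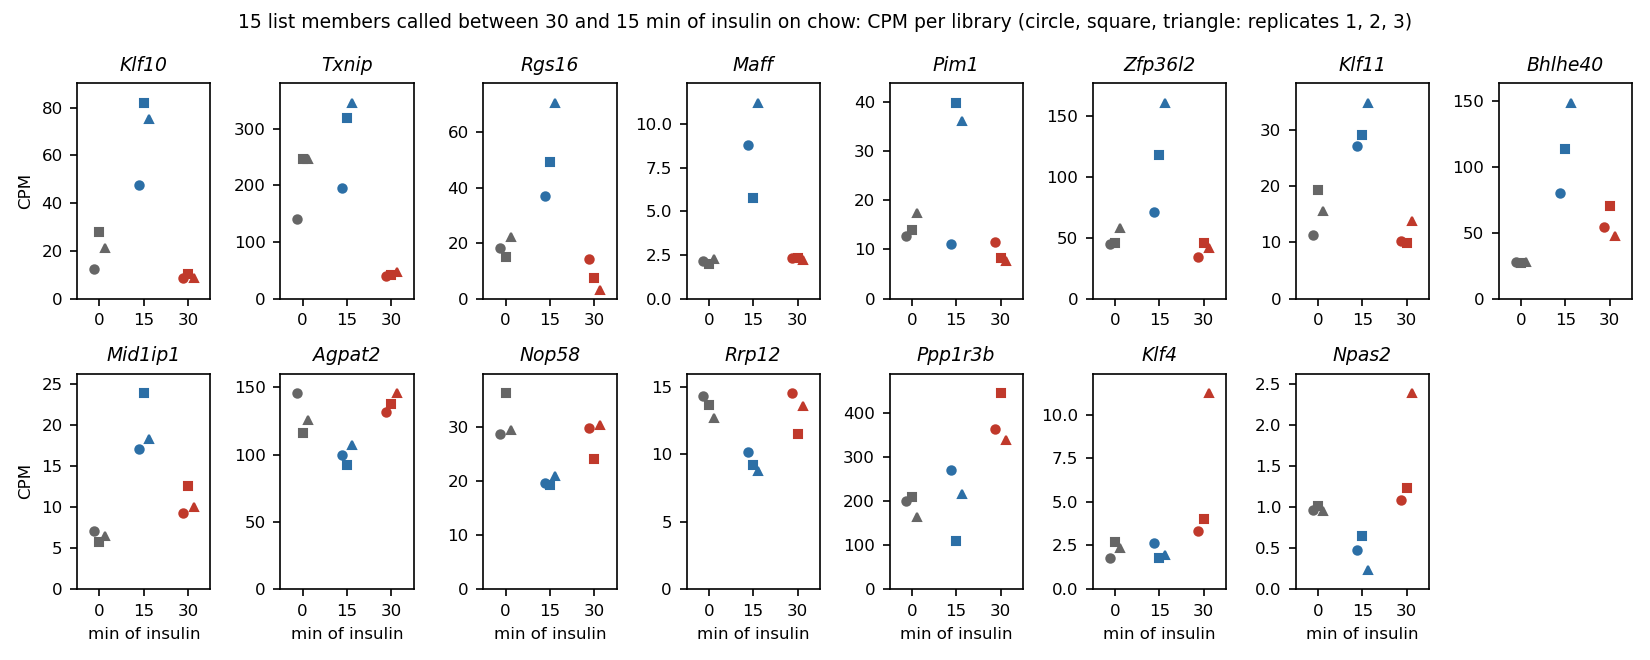
CPM (vertical axes, from 0) of 15 of the 16 list members called between 30 and 15 min of insulin on chow, in basal (grey), 15 min (blue) and 30 min (red) libraries, with symbols for the replicate. The first 9 panels have their highest values at 15 min and the last 6 are higher at 30 than at 15 min.

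Klf10, Klf11 and Txnip were called in all 13 alternative settings of the 30 against 15 min test, and Zfp36l2 in 12. The other 12 list members lost their calls without replicate 2 or without replicate 3 at 15 min, and without replicate 3 at 30 min. The count of called genes was 89, 12 or 18 without replicate 1, 2 or 3 at 15 min and 22, 30 or 21 without replicate 1, 2 or 3 at 30 min.

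In mice on 16 weeks of high-fat diet, Gm6484 was at 15.2, 15.0 and 28.5 CPM in basal liver and between 14.1 and 21.9 CPM in the 6 libraries at 30 min of insulin, and Txnip at 118, 131 and 117 CPM against 61.4 to 72.6 CPM. The test of the difference between the diets' responses called 0 genes with edgeR (2022 genes, 14.4%, at an unadjusted p below 0.05, and 111 called by DESeq2, 8 of them marker list members), with adjusted p from 0.0805 (Gm6484, log2 2.65) to 0.295 (Pcf11) for the 10 genes.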

How the data were processed

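Polyadenylated liver RNA was made into TruSeq RNA v1 libraries, which do not mark strand, and read from both ends for 40 to 50 bases, per the labels. Exons of Txnip, Irs2, Srebf1, Bhlhe40, Plk3, Ints6, Asap2 and Glyctk overlap those of a gene on the other strand. Reads of these shared parts cannot be told apart. The deposited values used for every result are raw read counts per gene. Per the submitters' processing notes, TopHat 1.4.0, HTSeq, DESeq2 1.0.18 and the mouse build mm9 were used. The deposited signal values, counts normalized by the authors with CQN and DESeq2 according to the labels, served in 1 alternative with limma, as log2(value + 1).

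The filterByExpr function (minimum count 10) left 14067 of 23227 genes, and 3737 had no read. All 45 libraries (14 groups) were scaled by TMM and fitted in edgeR 4.0.16 with a coefficient for each group, a quasi-likelihood F test and Benjamini-Hochberg adjustment. The SE is |log2 fold change|/√F. CPM use the TMM library sizes. No library was left out, and scripts were tested on simulated data. No label says that replicates are more than separate samples of at least 3 mice a group, so p-values measure the spread between these samples.

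Named were the called genes of at least 5 CPM whose groups do not overlap (up to 12 each way), up to 3 called members of each list, the most abundant member of each marker list, and 14 genes given in any case, of which 1 is not reported here: Igfbp1, Irs2, G6pc, Pck1, Srebf1, Egr1, Fos, Rgs4, Txnip, Foxo1, Insr, Socs2 and Per1. Other genes were named after their values were seen. The comparison, the 33 gene lists and the 12 marker lists were chosen with earlier results of these data known. Alternatives were RLE scaling, no filter, a replicate block, a fit of only the groups compared, DESeq2 1.42.0, length and GC trends taken out of each library, the deposited normalized values with limma 3.58.1, and leaving out each library. Gene positions are those of the mm9 gene models; promoter windows are from RefSeq on GRCm38.p6. R 4.3.3 and Python 3.11.15 were used.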

Additional observations from a re-analysis of the deposited data

How the results depend on the processing

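For 30 min against basal, 10 genes were also called with RLE scaling and with no filter. The count was 63 with DESeq2, 61 in the fit of only the groups compared, 22 with length and GC trends removed and 17 with the deposited values and limma. Leaving out each library in turn gave 1 to 14. For 30 against 15 min the 70 calls became 167 with DESeq2, 134 with trends removed, 114 with the deposited values and 22 in the fit of only the groups compared, and 12 to 89 with a library left out. For 30 against 60 min the count of 0 became 28 with DESeq2, 2 with trends removed and 0 to 3 with a library left out. For the difference between diets it became 111 with DESeq2, 7 in the fit of only the groups compared and 0 to 59 with a library left out. The causes were not tested. Rgs4, at about 0, changed sign with DESeq2 (0.011) and with trends removed (0.024), and ran from -0.51 to 0.22 with a library left out; Socs2 ran from -0.019 to 1.14, the former without insulin replicate 1.

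The labels do not say whether replicate numbers pair the samples. Deviations of same-numbered basal and 30 min libraries correlated at 0.13, 0.01 and 0.04, and only the first is above 0.1. With 3 libraries a group, these values cannot decide whether the numbers pair samples. With a replicate block, 7 genes were called at 30 min against basal, 58 against 15 min, 0 against 60 min and 14 for the difference between diets, and 19 with the block and trends removed together for 30 min against basal. Each insulin library correlated best with its own number for replicates 1 and 3 but not for replicate 2.

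With 3 libraries a group, the counts of calls depended on single libraries. Depth was 18.2 to 45.7 M reads, and genes near or under 1 CPM, such as Fosb, Mkrn3 or Npas2, rest on few reads. The 6 libraries differ in pancreatic and muscle RNA, whose part in the edgeR calls was not tested.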
